A study of Mus musculus with 3 samples.

Results

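Heat shock proteins and their cochaperones were followed on 3 microarrays of the mouse heart, with 1 array for each group. The members were all genes whose symbol begins with Hspa, Hspb, Hspd, Hspe, Hsph, Hsp90 or Dnaj, together with Bag1 to Bag6 and Cryab. Of 19505 genes measured, 77 met this rule, and each of them was read by a single probe. The symbols of 81 protein-coding genes of the mouse fit the rule, and the other 4, namely Hspa8, Hsp90ab1, Dnaja1 and Dnajb5, were not analysed here. The AAC + DAPA group had abdominal aortic constriction (AAC), a ligature around the abdominal aorta that loads the left ventricle with pressure, followed by 12 weeks of dapagliflozin (DAPA), 25 mg/kg each day with the drinking water. Dapagliflozin inhibits the sodium-glucose cotransporter SGLT2. The AAC group had the constriction and saline, and the sham group had the operation without the ligature and saline. All groups were wild-type C57BL/6 mice, labelled male with an age of 10 weeks, which cannot be the age of hearts taken after 12 weeks of dosing. How many mice gave the RNA of each array is not given in the labels or methods.

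Heat shock proteins are chaperones, which hold unfolded proteins, fold them or pass them on for degradation. HSP70 proteins bind and release their clients in a cycle driven by ATP. J proteins bring the clients and start the hydrolysis of ATP, while HSP110 and BAG proteins exchange the nucleotide. HSP90 takes over many signaling and muscle proteins with the help of its own cochaperones, and small heat shock proteins hold clients without ATP. In the heart, small heat shock proteins guard desmin and the sarcomere, which turn over under mechanical load. Many cytosolic chaperone genes are induced by the heat shock factor HSF1, whereas chaperones of the endoplasmic reticulum (ER) are induced by the unfolded protein response.

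HSF1 binds the heat shock element, a run of inverted GAA units in the promoter. RefSeq promoters of the build GRCm38.p6, from 250 bases before to 50 bases after a gene start, matched 63 of the 77 members. A pair of units, GAANNTTC or TTCNNGAA, both of which read the same on either strand, was found for 16 of these 63 members (25.4%) and for 15.4% of all 15691 genes with a promoter. Elements of 3 units, in which GAANNTTC is followed by NNGAA, or TTCNNGAA by NNTTC, each being the reverse complement of the other, hold 2 overlapping pairs. Such elements were found for 4 members (6.35%), namely Hspd1, Hspe1, Hsph1 and Dnajb6, and for 0.612% of all genes. The CCAAT box, bound by the factor NF-Y and searched as CCAAT or ATTGG, was found for 36.5% of the members and 42.2% of all genes. A match describes letters in this window and not binding. The stretches shown are those of the members with a pair that were lower in AAC than in sham, Hspb1, Hspb6 and Hsph1, and of the neighbours Hspd1 and Hspe1, with matched pairs in capitals. Among the other members past 1.5-fold in any comparison, Dnajc10 and Dnajc5g held a pair, and their stretches are not printed.
Hspd1, chr1:55088036-55088099, minus strand: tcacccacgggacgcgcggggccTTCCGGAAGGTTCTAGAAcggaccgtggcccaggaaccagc
Hspb1, chr5:135887784-135887847, plus strand: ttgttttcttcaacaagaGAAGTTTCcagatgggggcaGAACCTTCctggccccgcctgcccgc
Hspb6, chr7:30553153-30553216, plus strand: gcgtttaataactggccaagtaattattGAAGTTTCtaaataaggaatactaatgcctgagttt
Hsph1, chr5:149636337-149636400, minus strand: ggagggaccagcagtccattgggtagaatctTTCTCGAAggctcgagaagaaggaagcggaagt
The first stretch lies 104 to 167 bases before a start of Hspd1 and, read on the other strand, 49 to 112 bases before the start of Hspe1, so both genes share these units. The stretch of Hspb1 lies 72 to 135 bases before its start and holds 2 separate pairs, and that of Hspb6, 85 to 148 bases before a start, holds 1. The stretch of Hsph1 ends at the base before a start and holds 1 pair, and its element of 3 units lies after that start and is not printed.

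The values are log2 expression values that the authors normalized, so a difference of 1 is a 2-fold difference. Higher and lower mean at least 1.5-fold apart (0.585 on the log2 scale), the threshold of the study. With 1 array per group no difference has a replicate check and no test was run. The only spread that could be measured was that between probes of the same gene, with an SD of 0.31 for AAC against sham, 0.26 for AAC + DAPA against AAC and 0.19 for AAC + DAPA against sham over 55 genes with several probes, none of them a member, and this spread holds no difference between animals. The first and the second comparison share the AAC array, so an error on it enters both with opposite sign. The AAC array also differed from both others in ways that are not heat shock genes. All 3 measured Y-linked genes were high in AAC alone, with a mean of 2.83 in AAC + DAPA, 9.58 in AAC and 2.85 in sham. Eif2s3y stood at 2.72, 11.71 and 2.50 in the same order. The mice are labelled male on all arrays, and which label or sample is at fault could not be settled. In comparisons with the AAC array this difference and that of the condition cannot be told apart. No member lies on the X or Y chromosome. Of 9 measured macrophage and monocyte markers 6 were higher in AAC than in sham, with a mean over the list of 7.76 in AAC + DAPA, 8.60 in AAC and 7.62 in sham. Both measured markers of red blood cells were higher in AAC, with a mean of 8.31, 10.42 and 7.58. The defining genes of cardiomyocytes were high on all arrays, with list means of 18.01, 17.94 and 17.81 in the same order, and the means ran from 9.79 to 10.30 for fibroblast, 10.94 to 11.10 for endothelial, 6.87 to 7.63 for smooth muscle, 6.07 to 6.33 for skeletal muscle and 5.86 to 6.11 for adipocyte markers. These means hide single markers that were far apart. Smooth muscle actin Acta2 stood at 12.13 in AAC + DAPA, 10.08 in AAC and 15.25 in sham, skeletal actin Acta1 at 13.34, 10.35 and 11.72, and the β-myosin heavy chain Myh7 at 16.76, 16.65 and 14.37. In AAC against sham, 1 of 6 smooth muscle markers was lower and 1 higher, 1 of 9 skeletal muscle markers was lower, 1 of 9 cardiomyocyte markers was higher and 1 lower, and 2 of 6 fibroblast markers were lower. The sham array stood apart in clock genes, which cycle over the day, with Dbp at 16.04 in AAC + DAPA, 15.98 in AAC and 12.06 in sham, and Arntl at 6.34, 5.41 and 9.90. The part of these differences in the results on heat shock genes was not tested. In bulk tissue, fewer cells of a type and less RNA per cell cannot be told apart.

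In AAC, 10 of the 77 members were lower than in sham by 1.5-fold or more, 2 were higher and 65 differed by less. The 10 are 13.0% of the members, beside 4.98% of all genes that were lower, and the 2 are 2.60%, beside 4.88% that were higher. The members have higher values than most genes, since the mean over the arrays lay above the median of all genes for 61 of them, and of these 61 members 16.4% were lower and 3.28% higher, beside 8.19% and 6.64% of all 9752 such genes. The median difference was 0.00 for the members and for all genes. The 10 were Hsph1, the small heat shock genes Hspb1, Hspb6 and Hspb2, the J protein genes Dnaja3, Dnaja2, Dnajb1, Dnajc17 and Dnajc15, and Hsp90aa1. The 2 higher members were Hsp90b1 and Dnajc10, both of which encode proteins of the ER. A promoter was at hand for 8 of the 10 lower members, and 3 of these (37.5%) held a pair of heat shock units, against 13 of the other 55 members (23.6%). The CCAAT box was found for 4 of these 8 (50%), against 19 of the other 55 (34.5%). Over all genes the shares were 15.4% for the pair and 42.2% for the CCAAT box.

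**Figure D1:**
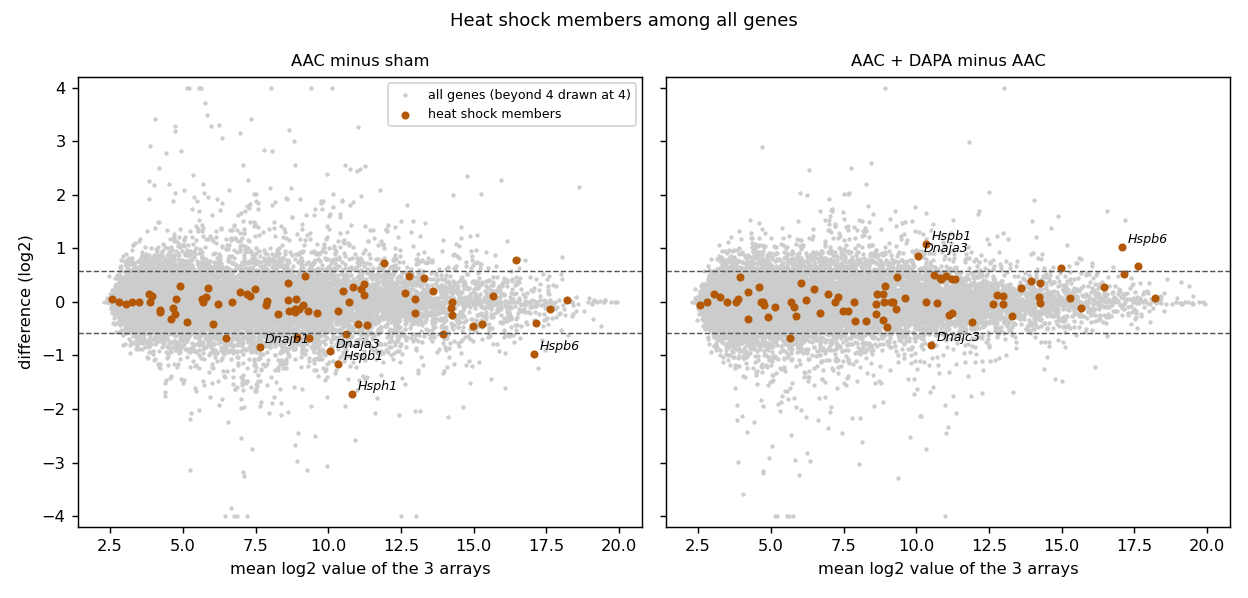
Difference on the log2 scale (vertical axis) against the mean log2 value of the 3 arrays (horizontal axis) for 77 heat shock members (orange) and all 19505 genes (grey), for AAC minus sham and AAC + DAPA minus AAC, with dashed lines at 1.5-fold and grey points beyond 4 drawn at 4. Hsph1, at -1.72, is the member furthest below sham, and Hspb1 (1.09) and Hspb6 (1.03) are the members furthest above AAC after DAPA.

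Among the 13 HSP70 and HSP110 genes, Hsph1 had the largest difference of any member. Hsph1 encodes HSP105, a member of the HSP110 family that serves HSP70 as nucleotide exchange factor. Its log2 value was 10.54 in AAC + DAPA, 10.09 in AAC and 11.81 in sham, 3.29-fold below sham in AAC and 2.41-fold below it in AAC + DAPA. Both arrays with the constriction were thus low, and DAPA differed from AAC by 0.45. Hspa5, the HSP70 of the ER also known as BiP, showed another order, with 18.02 in AAC + DAPA, 17.35 in AAC and 17.49 in sham. It was 1.59-fold above AAC in AAC + DAPA, a difference of 0.67, and stood 0.53 above sham. After quantile normalization of the arrays the 0.67 became 0.58, just within 1.5-fold. Hspa9, the mitochondrial HSP70 that pulls proteins through the inner membrane, stood at 15.24, 14.61 and 15.05 in AAC + DAPA, AAC and sham, 1.55-fold above AAC in AAC + DAPA. Hspa4, another HSP110, differed little, at 15.64, 15.76 and 15.64. The stress-inducible Hspa1a had 4.69 in AAC + DAPA, 4.41 in AAC and 4.72 in sham, and Hspa1b had 4.66, 4.66 and 4.88. All these values lie below the median of genes on their array (5.28 to 5.31). Hspa1a and Hspa1b are neighbours with nearly identical sequence, so their probes may not tell them apart.

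The 2 measured HSP90 genes differed in opposite directions between AAC and sham. Hsp90b1, which encodes the ER form GRP94, stood at 16.92 in AAC + DAPA, 16.64 in AAC and 15.86 in sham, 1.72-fold above sham in AAC and 2.08-fold above it in AAC + DAPA. Hsp90aa1, the stress-inducible cytosolic form, stood at 14.00, 13.61 and 14.21, 1.52-fold below sham in AAC. That difference of -0.60 was -0.54 after quantile normalization, which is within 1.5-fold. Against AAC both were above it in AAC + DAPA, by 0.28 for Hsp90b1 and 0.39 for Hsp90aa1, neither of them past 1.5-fold.

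Of the 8 small heat shock genes, 3 were below sham in AAC by 1.5-fold or more and none above it, with a median of -0.32. Of all genes 4.98% were lower, and 8.19% of those with a mean above the median. Set against AAC, 2 small heat shock genes were higher in AAC + DAPA (median 0.33), beside 4.16% of all genes and 5.86% of those with a mean above the median. Hspb1, the mouse HSP25 that binds actin filaments, stood at 10.68 in AAC + DAPA, 9.59 in AAC and 10.74 in sham. Hspb6, the HSP20 of heart and smooth muscle, which is phosphorylated by protein kinase A, stood at 17.43, 16.40 and 17.37. In both genes only the AAC array was low, by 2.22-fold and 1.96-fold against sham, and AAC + DAPA was 2.13-fold and 2.04-fold higher than AAC and within 0.06 of sham. Hspb2, a muscle protein that binds the myotonic dystrophy kinase, stood at 8.92, 8.62 and 9.28, 1.58-fold below sham in AAC. Cryab, which encodes αB-crystallin, the chaperone of desmin, was also lowest in AAC, with 17.36 in AAC + DAPA, 16.84 in AAC and 17.23 in sham. Its difference of 0.52 between AAC + DAPA and AAC became 0.59, past 1.5-fold, when each array was centred on its median. Cryab and Hspb2 are neighbours on chromosome 9. Hspb8, which works with Bag3 in the removal of damaged muscle proteins, stood at 14.41, 14.05 and 14.29, and Hspb7, a small heat shock protein of the heart, at 18.27, 18.19 and 18.15. Against sham, AAC + DAPA lay within 1.5-fold for all 8 genes, between -0.36 and 0.13. Of the muscle markers, Acta2 and Acta1 were also lowest in AAC. Unlike Hspb1 and Hspb6, they differed between AAC + DAPA and sham as well, by -3.12 and 1.62. Within 1.5-fold, Myl2 (19.25 in AAC + DAPA, 18.88 in AAC and 19.20 in sham) and Myl3 (17.26, 17.12 and 17.15) were lowest in AAC too. So were Tagln (7.34, 7.27 and 7.34) and Actn3 (5.66, 5.45 and 5.51). Not all muscle markers shared this order. Myh11 (5.28 in AAC + DAPA, 5.56 in AAC and 4.65 in sham) and Myh4 (3.99, 4.59 and 4.33) were highest in AAC. The means of both lie below the median of genes. Below sham in AAC were 5 of 9 cardiomyocyte, 4 of 9 skeletal muscle and 3 of 6 smooth muscle markers. Above it were 2, 1 and 1. Tnni3 and Ckm were the same on all 3 arrays. The part of these markers in the results was not tested.

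**Figure D2:**
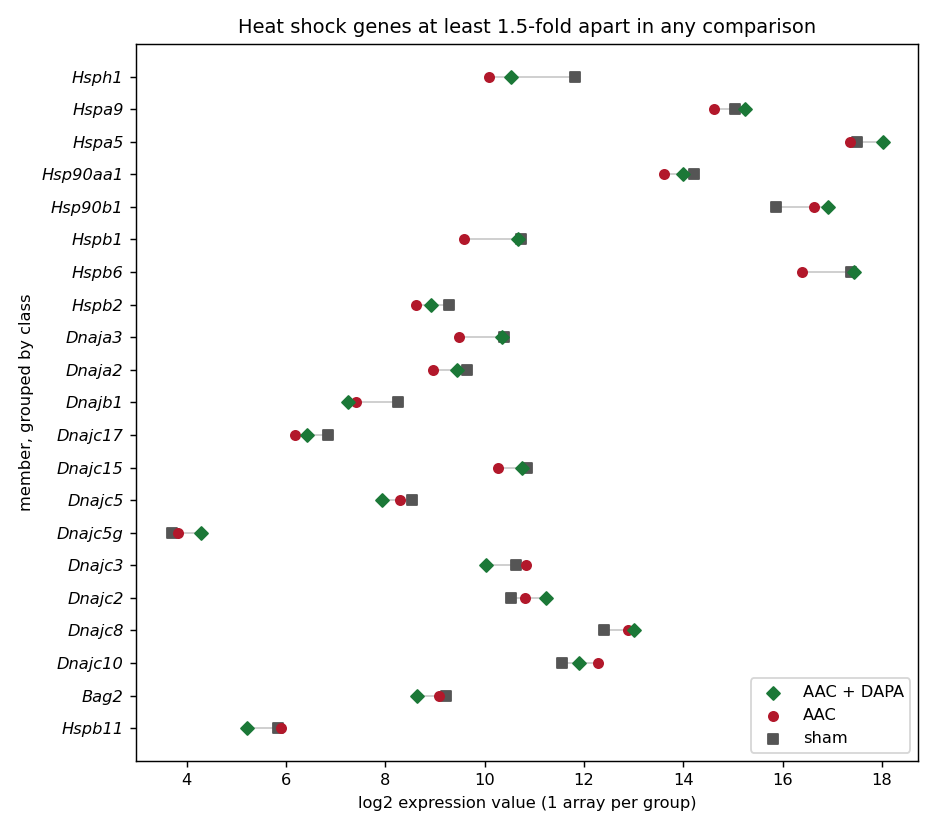
Log2 expression values (horizontal axis) of the 21 members at least 1.5-fold apart in any of the 3 comparisons, grouped by class down the page, with green diamonds for AAC + DAPA, red circles for AAC and grey squares for sham, 1 array each. For Hspb1, Hspb6 and Dnaja3 the AAC value is alone on the low side, for Hsph1 and Dnajb1 the sham value is alone on the high side, and for Hsp90b1 the sham value is alone on the low side.

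The mitochondrial chaperonin genes Hspd1 (HSP60) and Hspe1 (HSP10), which lie next to each other on chromosome 1 and share the heat shock element shown above, were both below sham in AAC by less than 1.5-fold, at -0.42 and -0.43. Hspd1 stood at 15.20 in AAC + DAPA, 15.12 in AAC and 15.54 in sham, and Hspe1 at 11.48, 11.05 and 11.48. In AAC + DAPA, Hspe1 was thus level with sham, while Hspd1 was 0.34 below it. Both genes have pseudogenes in the mouse genome, which their probes might also read.

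J proteins fall into class A and B, which resemble the bacterial DnaJ, and class C, which share only the J domain. Of 3 class A genes 2 were below sham in AAC by 1.5-fold or more, where 4.98% of all genes were lower. Dnaja3, the mitochondrial form Tid1 and a partner of Hspa9, stood at 10.34 in AAC + DAPA, 9.48 in AAC and 10.40 in sham, 1.89-fold below sham in AAC and 1.82-fold above AAC in AAC + DAPA. Dnaja2, a cytosolic partner of HSP70, stood at 9.44, 8.97 and 9.65, 1.60-fold below sham in AAC. The AAC array was thus the low one for both. Dnaja4 had 13.84, 13.58 and 13.37, with no comparison past 1.5-fold. Among 12 class B genes, Dnajb1 alone passed 1.5-fold, 8.33% of the class in AAC against sham, beside 4.98% of all genes that were lower. Dnajb1, the HSP40 that starts the HSP70 cycle and is itself induced by heat, stood at 7.25 in AAC + DAPA, 7.41 in AAC and 8.25 in sham, 1.79-fold below sham in AAC and 2-fold below it in AAC + DAPA. It therefore resembled Hsph1 in its order, with sham alone high. Dnajb6, a suppressor of aggregation that is mutated in a human muscular dystrophy, stood at 13.27, 13.53 and 13.09, and Dnajb4 at 14.24, 14.15 and 14.26.

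The 28 class C genes were spread to both sides, with 2 lower and 1 higher in AAC than in sham and a median of 0.06. Their shares of 7.14% and 3.57% are near the 4.98% and 4.88% of all genes. Dnajc15, a J protein of the mitochondrial inner membrane, stood at 10.76 in AAC + DAPA, 10.26 in AAC and 10.85 in sham, 1.51-fold below sham in AAC. Its relative Dnajc19 of the import motor stood at 14.25, 14.27 and 14.27. Dnajc17, a nuclear J protein linked to splicing, had 6.42, 6.18 and 6.85, 1.59-fold below sham in AAC. Dnajc10, the ER disulfide reductase ERdj5, was the gene on the other side, with 11.91 in AAC + DAPA, 12.29 in AAC and 11.56 in sham, 1.66-fold above sham in AAC. Dnajc3, the ER cochaperone P58IPK, stood at 10.03, 10.83 and 10.63, 1.74-fold below AAC and 1.52-fold below sham in AAC + DAPA, so that AAC + DAPA was the low array. Hspa5, its HSP70 partner, was instead highest on that array. Of the 6 BAG genes none passed 1.5-fold in either comparison with the AAC array. Bag3, which links HSP70 to Hspb8 and the Z-disc, stood at 11.04, 11.28 and 11.04, and Bag1 at 12.99, 12.88 and 13.08.

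**Figure D3:**
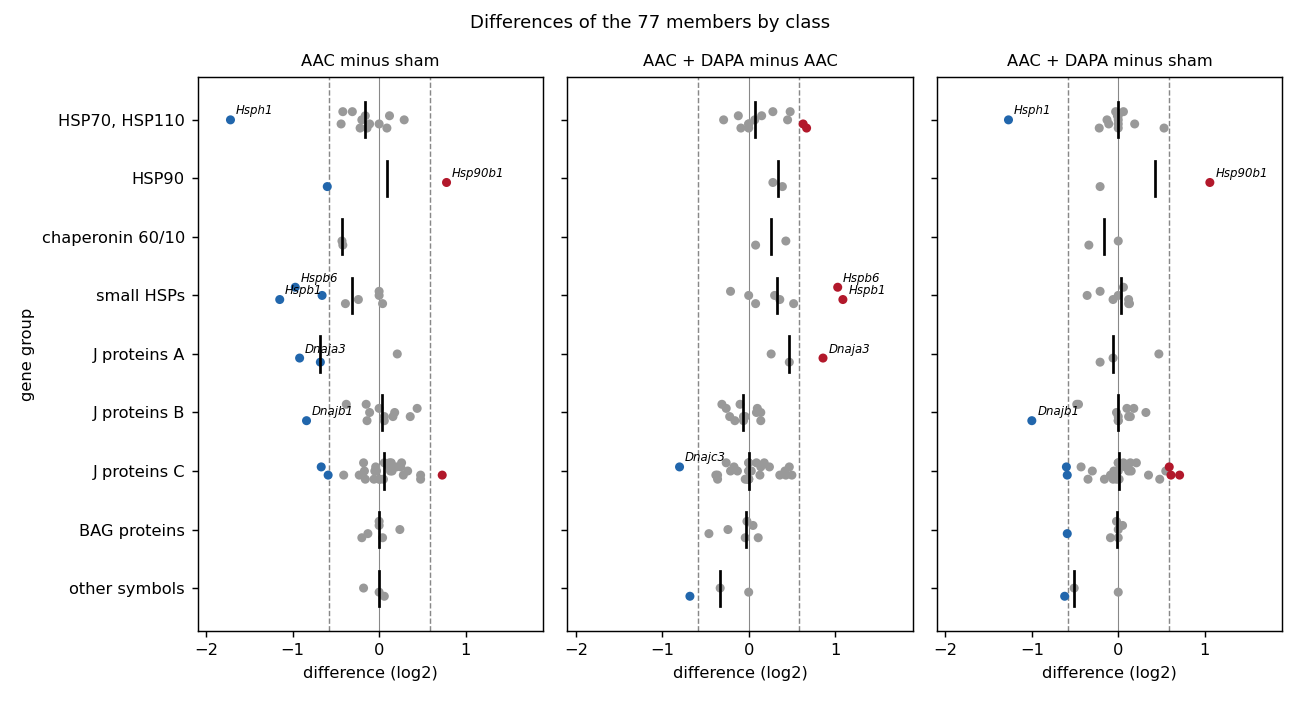
Difference on the log2 scale (horizontal axis) of each of the 77 members by class (vertical axis) in the 3 comparisons, with points at least 1.5-fold lower in blue, higher in red and others in grey, black bars at the median of the class and dashed lines at 1.5-fold. Small heat shock genes lie to the left in AAC minus sham (median -0.32) and to the right in AAC + DAPA minus AAC (median 0.33), while class C J proteins lie around 0 (medians 0.06 and 0.00).

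Set against AAC, 5 members were higher in AAC + DAPA, 2 were lower and 70 differed by less than 1.5-fold. The 5 are 6.49% of the members, beside 4.16% of all genes, and the 2 are 2.60%, beside 4.18%. Of the 61 members with a mean above the median 8.20% were higher and 3.28% lower, beside 5.86% and 4.96% of all such genes. These shares are near those of all genes. With each array centred on its median, 6 members were higher and 2 lower, beside 5.57% and 3.20% of all genes. After quantile normalization 4 were higher, without Hspa5, and 2 lower, beside 4.73% and 3.76%. The 5 higher members were Hspb1, Hspb6, Dnaja3, Hspa5 and Hspa9. The 2 lower members were Dnajc3 and Hspb11. Hspb11 is taken in by its symbol but encodes Ift25, a protein of intraflagellar transport in cilia, and stood at 5.22 in AAC + DAPA, 5.90 in AAC and 5.84 in sham. The other symbols of this kind were Hspbp1, an exchange factor of HSP70 with 8.58, 8.91 and 9.09, and Hspbap1, at 3.51 on all 3 arrays.

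AAC + DAPA against sham does not use the AAC array, and both of its arrays lacked the Y-linked signal. They were far apart in the clock genes, however, by 3.98 for Dbp and -3.56 for Arntl. For these genes sham was the array that stood apart, as it was for Hsph1, Dnajb1 and Hsp90b1. The part of this difference in the comparison was not tested, and it cannot be told apart from the condition. In this comparison 4 members were at least 1.5-fold higher and 6 lower in AAC + DAPA, 5.19% and 7.79%, beside 3.22% and 3.38% of all genes. Of the 61 members with a mean above the median 4.92% were higher and 9.84% lower, beside 4.82% and 5.02% of all such genes. Higher were Hsp90b1, Dnajc2, a J protein of the ribosome that stood at 11.24 in AAC + DAPA, 10.81 in AAC and 10.53 in sham, Dnajc8, a component of the spliceosome at 13.01, 12.88 and 12.40, and Dnajc5g, whose 4.29, 3.82 and 3.70 lie below the median of genes. Lower were Hsph1, Dnajb1, Hspb11, Dnajc3, Dnajc5 and Bag2. Dnajc5, the cysteine string protein of vesicles, stood at 7.94, 8.30 and 8.53, and Bag2, which inhibits the ubiquitin ligase CHIP, at 8.63, 9.09 and 9.22. Both were -0.59 from sham and fell within 1.5-fold under either other scaling, so that 4 members were then lower. The differences of Hsph1 (-1.27), Dnajb1 (-1.0) and Hsp90b1 (1.06) were 2-fold or larger.

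Compartments were read with lists drawn up after the values were seen. The ER list held 8 members, among them the membrane protein Dnajc1, at 0.48 in AAC against sham. The list is not complete, since Dnajb14, another membrane protein of the ER, at -0.38, was left out. In this comparison the ER list had a median of 0.28, with 2 higher and none lower. The 8 members of mitochondria had a median of -0.42, with 2 lower and none higher. Of all genes 4.88% were higher and 4.98% lower. In AAC + DAPA against AAC the mitochondrial members had a median of 0.26, with Hspa9 and Dnaja3 higher, and the ER members a median of -0.02, with Hspa5 higher and Dnajc3 lower. Of all genes 4.16% were higher and 4.18% lower in that comparison. Of the mitochondrial members, 6 lay below sham in AAC, 1 above (Dnajc30, at 6.05 in AAC against 5.79 in sham) and 1 was equal. In AAC + DAPA against sham, 1 ER member was higher and 1 lower, with a median of 0.24, beside 3.22% and 3.38% of all genes. No mitochondrial member passed 1.5-fold, with a median of -0.04. Lists drawn up in this way support nothing on their own.

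Genes that work with the heat shock proteins were read from 5 further lists. Most genes of these lists had a mean above the median of all genes. Of 30 measured HSP90 cochaperones 8 were lower in AAC than in sham and none was higher, with a list median of -0.21. The 8 are 26.7%, beside 4.98% of all genes and 8.19% of genes with a mean above the median. They were Unc45b, Fnip2, Stip1, Flcn, Ahsa1, Ptges3, Chordc1 and Fkbp4. Flcn is counted here as the partner of Fnip2 and not as a cochaperone itself. Unc45b, the chaperone that folds muscle myosin together with HSP90, stood at 10.24 in AAC + DAPA, 10.20 in AAC and 11.64 in sham, 2.71-fold below sham in AAC. Stip1, or HOP, which joins HSP70 and HSP90, stood at 12.67, 12.62 and 13.95, 2.51-fold lower. Fnip2, which slows the ATPase cycle of HSP90 (6.75, 6.54 and 7.91), and its partner Flcn, or folliculin (8.36, 8.31 and 9.32), were 2.58-fold and 2.01-fold lower. In these 4 genes the sham array was alone on the high side, as for Hsph1 and Dnajb1, and AAC + DAPA differed from AAC by 0.04 to 0.21. Ptges3, the cochaperone p23, was instead low in AAC alone, with 9.73, 9.09 and 9.82, and 1.56-fold above AAC in AAC + DAPA. In AAC + DAPA against AAC, 2 of the 30 (6.67%) were higher, beside 4.16% of all genes, and none was lower, with a median of 0.04. These 2 were Ptges3 and Nudc (10.72, 9.77 and 10.08). Against sham, 5 (16.7%) were lower and 1 (3.33%) higher in AAC + DAPA, beside 3.38% and 3.22% of all genes. With each array centred on its median, 4 were lower in AAC + DAPA than in sham, beside 3.20% of all genes. In AAC, 9 were then lower than in sham, beside 6.05%. Of 28 cochaperone genes with a promoter, 6 (21.4%) held a pair of heat shock units, beside 15.4% of all genes and 25.4% of the heat shock members.

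Of 15 measured genes of the CCT chaperonin, which folds actin and tubulin, and of prefoldin, which delivers them, 3 (20%) were lower in AAC than in sham. This stands beside 4.98% of all genes and 8.19% of genes with a mean above the median. None was higher, and the list median was -0.23. The prefoldin subunit Pfdn6 stood at 10.80 in AAC + DAPA, 9.88 in AAC and 10.98 in sham, and Pfdn5 at 12.02, 11.20 and 11.99, so AAC was low by 2.14-fold and 1.73-fold and AAC + DAPA was near sham. Cct3 stood at 12.18, 11.94 and 12.69, 1.68-fold below sham in AAC. In AAC + DAPA against AAC, Pfdn6, Pfdn5 and Cct7 (4.77, 4.03 and 4.23, below the median of genes) were higher and none was lower, with a list median of 0.21. The share of 20% stands beside 4.16% of all genes and 5.86% of genes with a mean above the median. With each array centred on its median, 5 were higher, beside 5.57% of all genes.

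Of 29 measured ER chaperones and genes of the unfolded protein response, 5 were above AAC in AAC + DAPA and none was below it, although the median of the list was 0.01. The 5 are 17.2%, beside 4.16% of all genes and 5.86% of genes with a mean above the median. Hyou1, or GRP170, the large HSP70 relative of the ER, stood at 10.20 in AAC + DAPA, 8.93 in AAC and 9.58 in sham, 2.41-fold higher than AAC and 1.54-fold higher than sham. Sil1, a nucleotide exchange factor of Hspa5, stood at 7.87, 6.67 and 6.84, 2.30-fold higher than AAC and 2.04-fold higher than sham. Both exchange factors were therefore highest on the same array as Hspa5. Creld2 (7.16, 6.38 and 6.68), the disulfide isomerase Pdia3 (12.55, 11.81 and 12.08) and Sel1l (9.65, 9.02 and 9.37), part of the ER degradation complex, were the others. The lectin chaperone Calr stood at 16.19, 15.68 and 15.69, 0.51 above AAC and within 1.5-fold. Transcription factors of the response lay within 0.17 of AAC in AAC + DAPA, with Atf4 at 11.23, 11.24 and 11.46, Xbp1 at 12.51, 12.34 and 12.41 and Ddit3 at 7.77, 7.68 and 7.77. In AAC against sham, only Hyou1 was past 1.5-fold, lower by 1.57-fold, which is 3.45% of the list beside 4.98% of all genes. Of 25 genes of this list with a promoter, 19 (76%) held a CCAAT box, beside 42.2% of all genes, and 1 (4%) held a pair of heat shock units, beside 15.4%.

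**Figure D4:**
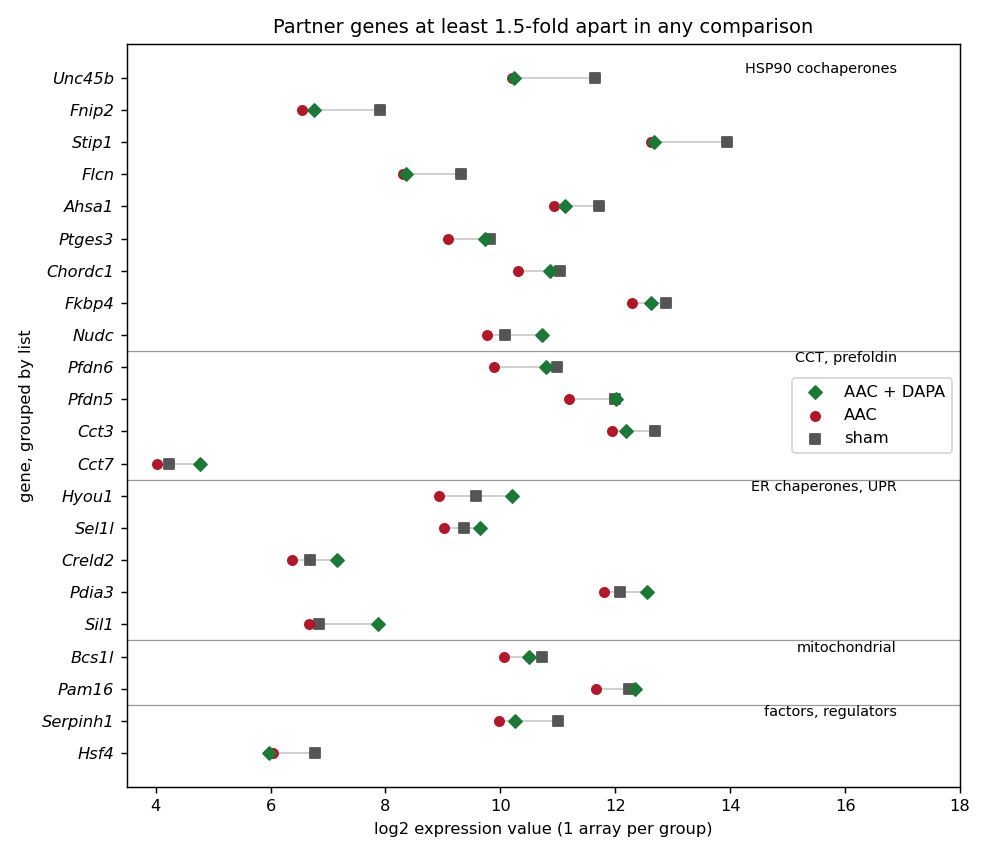
Log2 expression values (horizontal axis) of the 22 partner genes at least 1.5-fold apart in any of the 3 comparisons, grouped by list down the page, with green diamonds for AAC + DAPA, red circles for AAC and grey squares for sham, 1 array each. Unc45b, Fnip2, Stip1 and Flcn have sham alone on the high side, while Hyou1, Sel1l, Creld2, Pdia3 and Sil1 have AAC + DAPA as the highest of the 3.

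In the other lists fewer genes passed 1.5-fold. Of 16 measured mitochondrial proteases and import chaperones, 1 was below sham in AAC (list median -0.08) and 1 above AAC in AAC + DAPA (list median 0.01). Each is 6.25% of the list, beside 4.98% and 4.16% of all genes. The 2 genes were Bcs1l, the assembly factor of complex III (10.50 in AAC + DAPA, 10.07 in AAC and 10.72 in sham), and Pam16 of the import motor (12.34, 11.67 and 12.23). Timm44 (11.86, 12.35 and 12.23) and Htra2 (8.27, 8.27 and 8.63) stayed within 1.5-fold. Of 11 measured heat shock factors and regulators, 2 (18.2%) were lower in AAC than in sham, beside 4.98% of all genes. None was higher, and the median was -0.02. Serpinh1, or HSP47, the collagen chaperone of the ER that is induced by heat, stood at 10.25, 9.97 and 11, 2.04-fold below sham in AAC and 1.68-fold below it in AAC + DAPA. The fibroblast markers Col3a1 (8.62, 9.14 and 10.25), Lum (12.84, 12.68 and 13.57) and Col1a2 (7.39, 7.25 and 7.55) were also highest in sham. Others were not. Dcn (17.87, 17.97 and 17.68) was lowest in sham, Tcf21 (6.11, 6.71 and 6.66) was highest in AAC, and Col1a1 (5.90, 6.11 and 6.11) was equal in AAC and sham. Of the 6 measured fibroblast markers 2 were lower in AAC and 2 lower in AAC + DAPA. The part of these markers in the difference of Serpinh1 was not tested. The factor Hsf4 stood at 5.98, 6.04 and 6.78, 1.67-fold below sham in AAC. Under median centring 3 of the list were lower in AAC, beside 6.05% of all genes. Hsf2 stood at 9.34, 9.89 and 9.87, and Hikeshi, which carries HSP70 into the nucleus, at 12.39, 11.84 and 12.39. Hsf1 was not analysed here.

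Other HSP70 and J protein genes stayed closer together. Hspa4l, an HSP110 relative of Hspa4, stood at 11.20 in AAC + DAPA, 10.72 in AAC and 11.14 in sham, so that AAC was the low array by 0.48 and 0.42. Hspa13, an HSP70 of microsomes, stood at 9.59, 9.52 and 9.72, and Hspa14, an HSP70 that binds ribosomes, at 8.69, 8.54 and 8.70. The J proteins of the ER Dnajb9 (12.66, 12.70 and 12.54) and Dnajb11 (8.58, 8.80 and 8.44), both partners of Hspa5, stayed within 1.5-fold, while Dnajc1, a membrane protein of the ER, was level on both arrays with the constriction, at 9.37, 9.37 and 8.89. The members closest to 1.5-fold from below were Dnajc28 at 0.55 in AAC + DAPA against sham (11.55, 11.13 and 11) and Hspa5 at 0.53 in the same comparison. Closest from above were Dnajc15 at -0.59 in AAC against sham, and Bag2, Dnajc5 and Dnajc5g in AAC + DAPA against sham. Dnajc7, a cochaperone of both HSP70 and HSP90, differed by 0.05 at most, with 12.98, 13.02 and 12.97. Bag5 and Bag6, of which Bag6 guards membrane proteins before their insertion, stood at 10.72, 10.74 and 10.74 and at 8.60, 8.64 and 8.60.

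In all, 56 of the 77 members lay within 1.5-fold in all 3 comparisons, a count that was not made for all genes. Within 1.5-fold in AAC against sham were 65 members, beside 17581 of all 19505 genes. In AAC + DAPA against AAC these numbers were 70 and 17879, and in AAC + DAPA against sham 67 and 18217. The mean of 16 members lay below the median of genes, among them Hspa1a, Hspa1b, Hspa1l, Hspa2, Dnajb3, Dnajb13 and Hspb9, and of these 16 Dnajc5g alone passed 1.5-fold. The values of Hspb9, Hspbap1 and Hspa12b were the same on all 3 arrays to the 2 decimals deposited. Equal values between 2 or more arrays were found for 29 members (37.7%), beside 52.2% of all genes and 40.8% of genes with a mean above the median. How such equal values arose was not tested.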

How the data were processed

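Heart RNA was measured on 3 Affymetrix arrays, 1 each for AAC + DAPA, AAC and sham, and samples were grouped by their labels. The authors deposited log2 expression values, already normalized, 1 per probe and array. Affymetrix Expression Console is named in the submitters' processing notes, and the methods name a GeneChip PrimeView array, which is made for human genes, and an Agilent protocol. How the arrays were normalized is not given in any of them. The deposited probes name mouse genes.

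Of 22206 probes, 19572 name 1 gene in the platform annotation, 0 several and 2634 none. Values were averaged per gene (19505 genes), with no filter, and differences were counted at 1.5-fold without a test. Hsf1 was to be named and was not analysed here. The number of arrays limits the precision. Members, lists and the threshold were chosen with earlier results of these data known, and the lists support nothing on their own. Named members were those past 1.5-fold in any comparison whose highest array lay above its median, and the 2 with the highest mean in each class. From each further list up to 4 genes with the largest difference were taken. Calr, Atf4, Xbp1, Ddit3, Hspb8, Hspa1a, Hspa1b, other members within 1.5-fold and the further genes named as exceptions or members of a count, as well as Dbp and Arntl, were chosen after their values were seen. Promoters were from RefSeq (GRCm38.p6), and gene symbols and neighbours from its gene table, in which all 77 members were found. The counting was tested on simulated arrays. Alternatives were median centring, the highest-mean probe of a gene, quantile normalization, 2 filters on level, a smaller and a larger fold, and leaving out the X and Y chromosomes. Tools were numpy 2.4.6 and pandas 2.3.3 under Python 3.11.15, with matplotlib 3.10.9 for figures.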

Additional observations from a re-analysis of the deposited data

How the results depend on the processing

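The 6 counts of members and the 3 medians kept their size under median centring, quantile normalization and both filters on level. Kept means within 1.5 times for counts and within the spread between probes for medians. Choosing the highest-mean probe or leaving out the X and Y chromosomes could not change them. Each member has a single probe, and none lies on X or Y. Median centring moved no named difference by more than 0.07, so it could not take a median past that spread. The counts moved with the fold chosen. At 2-fold, AAC had 0 members above and 2 below sham, beside 1.43% and 1.24% of all genes. AAC + DAPA had 2 above and 0 below AAC, beside 0.831% and 1.16% of all genes. AAC + DAPA had 1 above and 2 below sham, beside 0.872% and 0.851%. At a smaller fold, 25% above equality, AAC had 7 above and 17 below sham, beside 12.7% and 12.2% of all genes. AAC + DAPA had 17 above and 7 below AAC, beside 11.4% and 12.3% of all genes. AAC + DAPA had 9 above and 13 below sham, beside 9.48% and 9.74%. These counts are out of 77 members. Of 99 differences of named members, 3 changed side of 1.5-fold under median centring and 4 under quantile normalization. No difference past 1.5-fold changed sign, while 4 small ones did under median centring and 5 under quantile normalization, none of them larger than 0.12. No paired analysis was possible because each group has 1 array. An SD between probes of 0.19 to 0.31 is large beside the threshold of 0.585, and the members nearest to it are Dnajc15, Bag2, Dnajc5 and Dnajc5g.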
